A study of Sus scrofa with 2 samples.

Results

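The collagens that do not build the main fibrils of adipose tissue were compared in backfat, the subcutaneous fat along the back, between castrated and intact pigs. The 7 genes were COL6A2, COL6A3 and COL6A6 of collagen VI, COL4A6 and COL15A1 of the basement membrane, and COL12A1 and COL14A1 of the fibril-associated collagens. They were chosen by gene name, with earlier results of these data known. The 7 genes had 10 of the 2645 transcripts in the deposited mRNA table, under 9 of its 2266 gene identifiers. The table itself named 8 of these lines. The other 2 carried locus identifiers, LOC100156689 and LOC100620394, whose gene IDs a RefSeq gene table of the assembly Sscrofa11.1 pairs with COL12A1 and COL15A1.

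The castrated group was made up of 3 castrated males and the intact group of 3 intact males, all of the Huainan breed, aged 300 days and kept on a standard diet. The sources used here do not give the age at castration. Each group had 1 value per transcript, and whether RNA was pooled or values were averaged over the 3 pigs was not given, so no value below has an error between animals and no difference was tested. The levels are FPKM, fragments scaled to transcript length and to the mapped total, and the sequencing depth behind them is unknown. The table holds transcripts that the authors called (largest q-value 0.0499), so a collagen chain without a line is not known to be unchanged. Genes were looked up by name, so lines left without a gene name could belong to a gene given below as not listed.

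Collagen VI is a microfibrillar collagen that surrounds adipocytes and links them to the interstitial matrix. Its basic trimer joins an alpha-1, an alpha-2 and an alpha-3 chain, and the alpha-6 chain can take the place of alpha-3. Collagen IV forms the sheet of the basement membrane that wraps each adipocyte and capillary, collagen XV sits at the outer face of that sheet, and collagens XII and XIV bind to the surface of collagen I fibrils.

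In castrated pigs 6 of the 7 genes stood lower and COL15A1 alone stood higher than in intact pigs. The largest differences were those of COL6A3 (10.6-fold lower) and COL12A1 (9.04-fold lower), while the other transcripts that were lower differed by 2.63-fold to 4.80-fold. The 3 COL15A1 transcripts were 3.29-fold to 3.50-fold higher. A rule of size was used in place of a test: the values of FPKM + 1 had to differ 2-fold or more, a log2 difference of 1, and the larger FPKM had to reach 1. By it 7 of the 10 transcripts were lower in castrated pigs, against 39.9% of all listed transcripts, and 3 were higher, against 42.6%. The smallest log2 fold change in the authors' deposited table was 1.15 in absolute size, so a listed transcript could miss the rule only through a low level, and passing it adds little to being listed. The median log2(FPKM + 1) difference was -1.41 over the 10 transcripts and 0.67 over all 2645. Several transcripts share a gene, so the 10 are not independent of each other. The genes were chosen with earlier results known, so the contrast with all listed transcripts is not that of an unselected set.

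The list as a whole leaned towards castrated pigs. Among the 1313 transcripts that reached 1 FPKM in castrated and in intact pigs alike, the median log2 difference was 1.14. Relative to that shift the 7 lower transcripts lay between -4.45 and -2.16 and still passed the rule, which 43.3% of all listed transcripts then did downwards, while the COL15A1 transcripts lay between 0.56 and 0.65, still higher in castrated pigs but below the rule, which 5.03% then passed upwards. The table holds called transcripts only, so this median is not an estimate of a difference in scale.

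**Figure D1:**
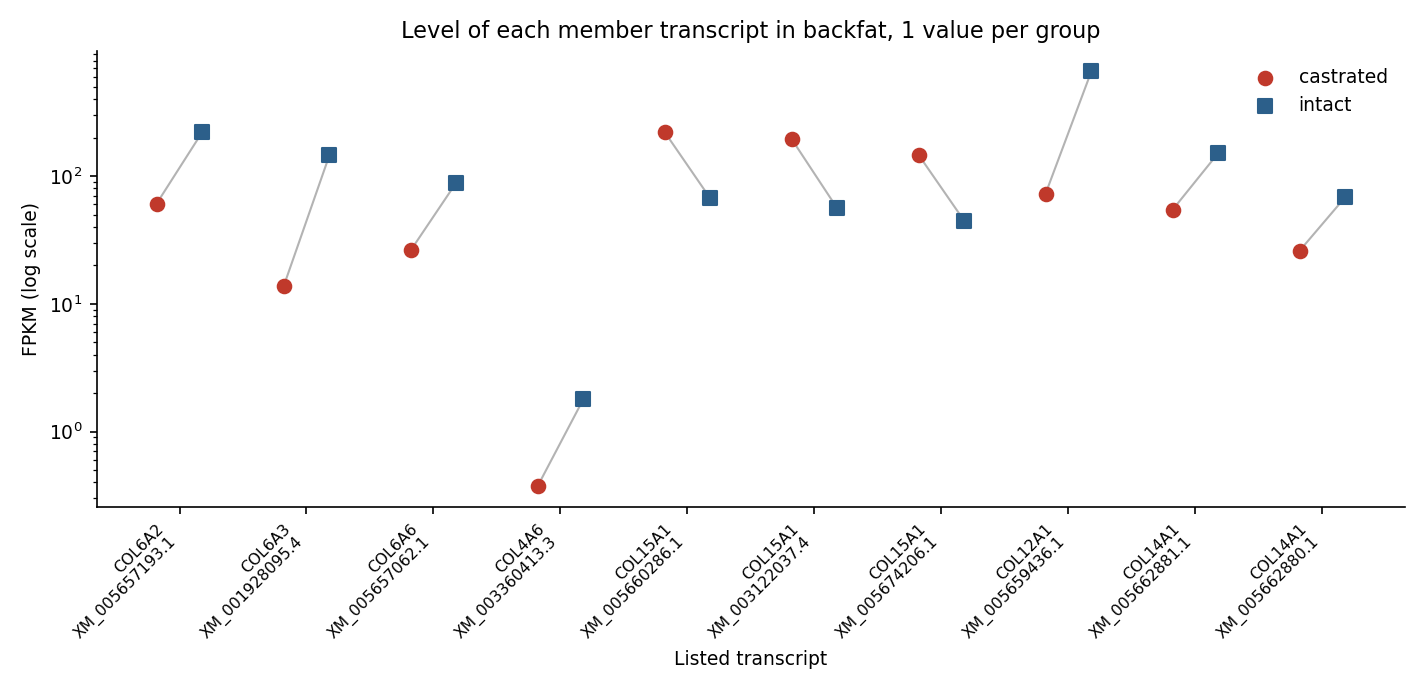
FPKM (log axis) of the 10 listed transcripts of the 7 collagen genes in castrated (circles, left of each pair) and intact (squares, right) backfat; each point is the 1 deposited value of its group and grey lines join the pair. The castrated point lies below the intact point for 7 transcripts and above it for the 3 COL15A1 transcripts, as it does after centring on the median, and the COL4A6 transcript lies far below the others.

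**Figure D2:**
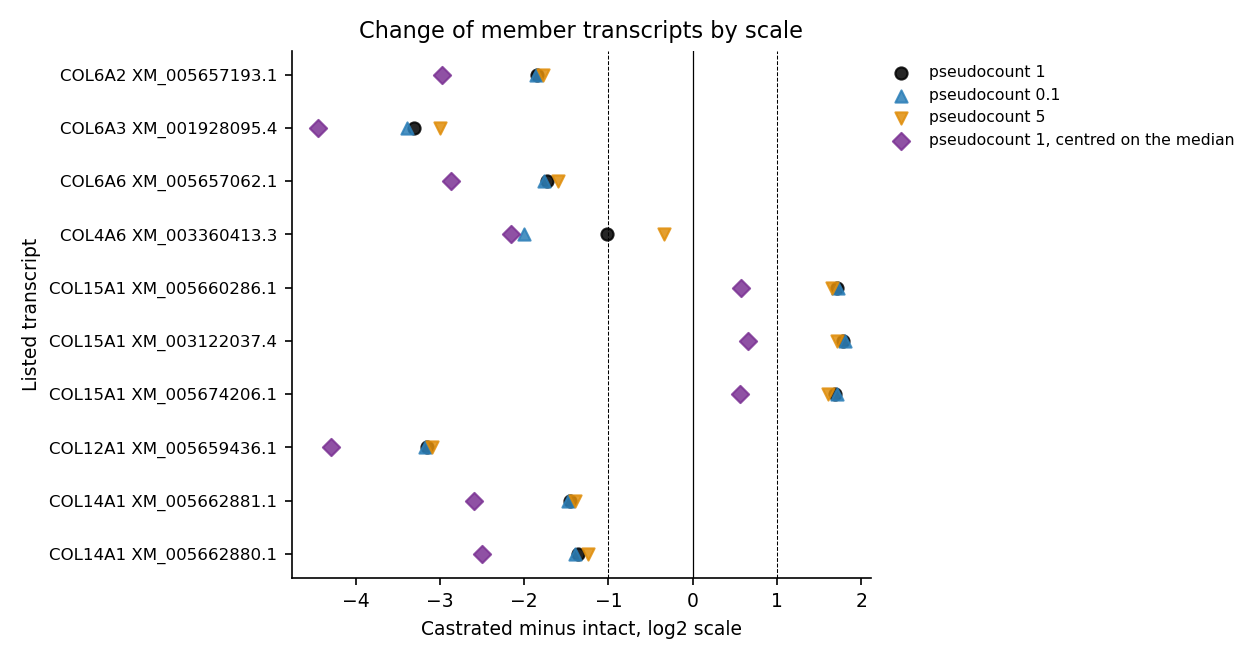
Castrated minus intact difference on the log2 scale (x axis) of the 10 collagen transcripts with pseudocounts of 0.1, 1 and 5 and, at a pseudocount of 1, after subtracting the median of listed transcripts (diamonds); dashed lines mark the 2-fold rule, and each point comes from 1 value per group. The 3 COL15A1 diamonds lie between 0.56 and 0.65, inside the rule, and the COL4A6 values spread from -2.16 to -0.34, while every point keeps its side of 0.

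Collagen VI was represented by 3 chains, all lower in castrated backfat. COL6A2 (gene ID 100101552, transcript XM_005657193.1, 3640 bases), which encodes the alpha-2 chain found in every collagen VI trimer, stood at 60.9 FPKM in castrated and 221 FPKM in intact pigs, 3.64-fold lower. COL6A3 (gene ID 100101551, XM_001928095.4, 10028 bases) encodes the long alpha-3 chain, whose C-terminal end is released as the adipose fragment endotrophin in mice and humans. It stood at 13.7 FPKM in castrated and 145 FPKM in intact pigs. COL6A6 (gene ID 100516642, XM_005657062.1), which encodes the alternative alpha-6 chain, stood at 26.2 FPKM in castrated and 89.0 FPKM in intact pigs, 3.40-fold lower. COL6A1 and COL6A5, the remaining chains on the list of 5 used here, had no transcript listed by name.

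The 3 chains did not differ by the same factor, so their proportions differed between the groups. The FPKM ratio of COL6A3 to COL6A2 was 0.225 in castrated and 0.655 in intact pigs, 2.91 times lower in castrated pigs. The ratio of COL6A6 to COL6A2 was 0.430 in castrated and 0.402 in intact pigs, 1.07 times higher in castrated pigs. COL6A6 thus stood above COL6A3 in castrated pigs, at a ratio of 1.91, and below it in intact pigs, at a ratio of 0.614. These ratios do not change when every transcript of a group is rescaled by 1 factor. The listed COL6A6 transcript has 1248 bases, far fewer than that of COL6A3, and each ratio compares listed transcripts, not the whole output of a gene.

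**Figure D3:**
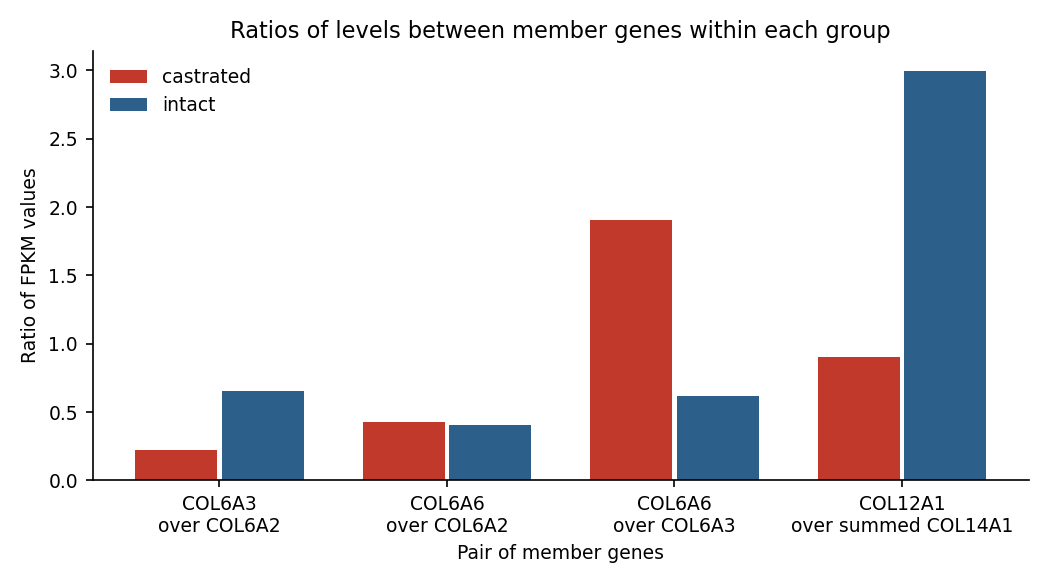
Ratios of FPKM (linear axis from 0) between pairs of collagen genes in castrated (left bar) and intact (right bar) backfat, each from 1 value per group and gene, without error. COL6A6 over COL6A2 was alike in both groups (0.430 and 0.402), while COL6A3 over COL6A2 (0.225 and 0.655) and COL12A1 over summed COL14A1 (0.905 and 2.99) were lower in castrated pigs, and COL6A6 over COL6A3 was higher (1.91 and 0.614).

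A further transcript assembled by the authors, Novel_000083 of 1866 bases (gene ID XLOC_407389), is described in the deposited table by its similarity to the human alpha-6(VI) chain. It stood at 22.7 FPKM in castrated and 71.2 FPKM in intact pigs, 3.14-fold lower, near the 3.40-fold of COL6A6 itself. The lncRNA table lists 18 long noncoding RNAs, and 1 of them, TCONS_00465264 (854 bases), has both COL6A6 and XLOC_407389 among the 4 neighbouring genes assigned by the authors. That lncRNA stood at 3.96 FPKM in castrated and 15.98 FPKM in intact pigs, 4.03-fold lower. By the rule of size 27.8% of the listed lncRNAs were lower in castrated pigs. The other 2 neighbours, PIK3R4 and LOC100739656, had no line in the mRNA table. The 3 transcripts at this place were all lower in castrated backfat, and whether they are parts of 1 longer RNA cannot be told from the tables.

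The basement membrane genes went apart. COL4A6 (gene ID 100620724, XM_003360413.3, 6116 bases), an alpha chain that pairs with alpha-5(IV) in some basement membranes, was the lowest of the 10 transcripts in both groups. It stood at 0.373 FPKM in castrated and 1.79 FPKM in intact pigs, 4.80-fold lower. On the log2(FPKM + 1) scale this is -1.02, just past the rule, and with a pseudocount of 5 it was -0.34 and no longer passed. A second assembled transcript, Novel_000420 (512 bases), which the table describes as similar to the human alpha-6(IV) chain, stood at 1.13 FPKM in castrated and 6.08 FPKM in intact pigs, 5.39-fold lower. No transcript was listed by name for COL4A1 or COL4A2, the chains of the common collagen IV network, nor for COL4A5, COL4A3 or COL4A4.

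COL15A1, which encodes a collagen whose C-terminal domain resembles that of endostatin, was listed under 3 gene IDs. The transcript of gene ID 102164530 (XM_005660286.1, 1587 bases) stood at 221 FPKM in castrated and 66.8 FPKM in intact pigs, 3.31-fold higher. That of gene ID 100512644 (XM_003122037.4, 1625 bases) stood at 195 FPKM in castrated and 55.8 FPKM in intact pigs, 3.50-fold higher. That of gene ID 100620394 (XM_005674206.1, 2265 bases), the line named through RefSeq, stood at 146 FPKM in castrated and 44.5 FPKM in intact pigs, 3.29-fold higher. The ratios of the 3 lines were thus close to each other, and their order of level was the same in both groups. Of the 3 gene IDs only 100620394 is in the RefSeq table of the newer assembly. Whether the lines are copies or pieces of 1 gene was not tested, so no summed level is given for the gene. The authors' annotation gives an endostatin-type domain for gene IDs 100512644 and 100620394 and a collagen triple helix repeat for 102164530.

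The fibril-associated collagens were lower in castrated pigs, COL12A1 far more than COL14A1. COL12A1 (gene ID 100156689, XM_005659436.1, 7194 bases), a large collagen of tendon, fascia and other load-bearing tissue, stood at 72.9 FPKM in castrated and 659 FPKM in intact pigs. Of all 2645 transcripts it had rank 191 by level in castrated and rank 11 in intact pigs. COL14A1 (gene ID 100158059), a close relative that regulates fibril growth in mice, had 2 transcripts. XM_005662881.1 (6298 bases) stood at 54.5 FPKM in castrated and 152 FPKM in intact pigs, 2.78-fold lower. XM_005662880.1 (6421 bases) stood at 26.0 FPKM in castrated and 68.5 FPKM in intact pigs, 2.63-fold lower.

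The first COL14A1 transcript made up 67.7% of the gene's listed FPKM in castrated and 68.9% in intact pigs, so the split between the isoforms was alike. The sources used here do not say how reads shared by the 2 isoforms were divided. COL12A1 stood at 0.905 times the summed COL14A1 level in castrated pigs and at 2.99 times in intact pigs. Set against the listed transcript of COL1A1, the main chain of the fibrils they coat, COL12A1 had an FPKM ratio of 0.126 in castrated and 0.0843 in intact pigs. For summed COL14A1 this ratio was 0.139 in castrated and 0.0281 in intact pigs, 4.93 times higher in castrated pigs. COL1A1 itself was 13.5-fold lower in castrated pigs, more than either fibril-associated gene. Its listed transcript has 1480 bases, far fewer than those of COL12A1 and COL14A1, and these ratios compare listed transcripts, not the whole output of a gene.

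**Figure D4:**
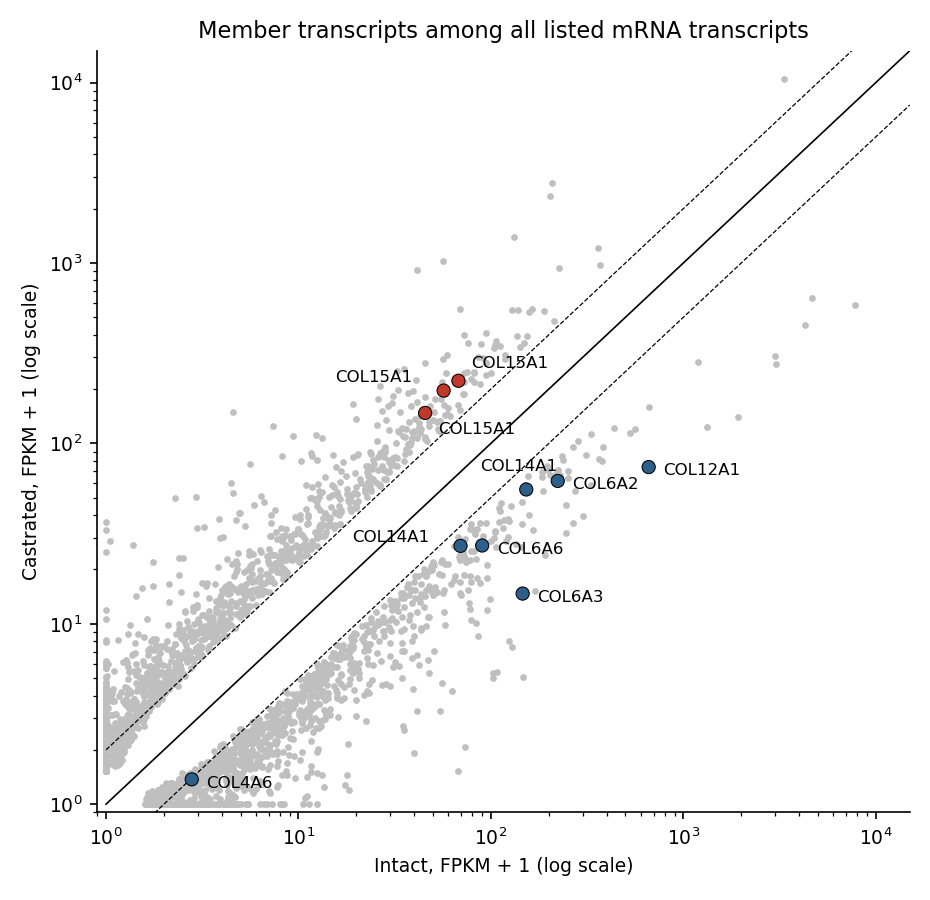
FPKM + 1 in castrated (y axis) against intact (x axis) backfat for all 2645 listed mRNA transcripts (grey), both axes logarithmic, with the 10 collagen transcripts outlined (red higher, blue lower in castrated); the solid line marks equal values and the dashed lines a 2-fold difference. The empty band along the line shows that the table holds called transcripts only, and COL6A3 and COL12A1 lie farther from the line than the other collagen transcripts shown.

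In intact pigs the order of level was led by COL12A1, followed by COL6A2 and the first COL14A1 transcript, with COL6A3 close behind. In castrated pigs the 3 COL15A1 transcripts led, at 146 to 221 FPKM, followed by COL12A1 and COL6A2, and COL6A3 came last but for COL4A6. With 1 value per group it cannot be said which neighbours in these orders differ. By the log2 fold change of the authors' deposited table COL6A3 had rank 360 and COL12A1 rank 382 of the 1280 transcripts lower in castrated pigs. The COL14A1 transcripts had ranks 1143 and 1191 there, and the COL15A1 transcripts ranks 949, 1008 and 1018 of the 1365 higher ones. By that fold change most transcripts that differed in the same direction had a larger change than those of COL15A1 and COL14A1. It adds no pseudocount, so transcripts with a very low level in 1 group can rank high. No ranks were taken on the log2(FPKM + 1) scale. The q-values in the authors' deposited table were 1.25e-07 for COL6A3, 0.00112 for COL12A1 and 0.0470 for XM_005662881.1 of COL14A1, the closest of the 10 to the limit of the table.

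Other collagens and their partners were counted from lists of related genes. In the fibril-associated list of 10 genes, 4 genes with 5 transcripts were listed and all 5 passed downwards (median log2 -1.77, against 0.67 over all listed transcripts). The transcripts outside the 7 genes were those of COL16A1, a minor fibril-associated collagen, at 10.7 FPKM in castrated and 56.2 FPKM in intact pigs, and of COL21A1, at 3.15 FPKM in castrated and 13.2 FPKM in intact pigs. Of 11 fibrillar collagens 5 were listed, with 4 lower, 1 higher and a median of -2.11. COL11A1, listed as COLL11A1, which encodes a chain that nucleates thin fibrils, stood at 1.59 FPKM in castrated and 34.4 FPKM in intact pigs. COL5A3, a fibrillar collagen gene, stood at 175 FPKM in castrated and 53.7 FPKM in intact pigs. It was 3.27-fold higher, close to COL15A1, and after centring it no longer passed.

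Basement membrane genes other than collagens were also split, with 6 transcripts lower and 2 higher among 8 listed for 7 of 20 genes (median log2 -1.40). LAMC3, a laminin gamma chain gene, stood at 1.01 FPKM in castrated and 11.7 FPKM in intact pigs. LAMA3, a laminin alpha chain gene, stood at 3.04 FPKM in castrated and 9.75 FPKM in intact pigs. FBLN1, which encodes the matrix glycoprotein fibulin-1, had transcripts 4.69-fold and 2.86-fold lower. The 2 that were higher were NID2, which encodes the nidogen-2 linker of laminin and collagen IV, at 90.8 FPKM in castrated and 27.1 FPKM in intact pigs, and PXDN, the peroxidase that cross-links collagen IV, at 7.24 FPKM in castrated and 0.816 FPKM in intact pigs. NID2 was 3.35-fold higher, again near the COL15A1 values, and of the 2 PXDN alone still passed after centring.

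Enzymes and chaperones that process collagen had 13 transcripts of 9 of 31 genes, 12 of them lower, none higher past the rule, with a median log2 of -1.54. P4HA2, a catalytic subunit of prolyl 4-hydroxylase, had a transcript at 0.513 FPKM in castrated and 10.6 FPKM in intact pigs and another at 12.3 FPKM in castrated and 30.7 FPKM in intact pigs. P4HA3, another such subunit, stood at 5.47 FPKM in castrated and 37.7 FPKM in intact pigs. PCOLCE, an enhancer of procollagen cleavage, was 7.09-fold lower in the transcript with the larger change and 2.80-fold lower in the other. Receptors and partners of these collagens had 8 transcripts of 4 of 26 genes, 7 of them lower and none higher (median -1.55). DCN, which encodes the collagen-binding proteoglycan decorin, had an abundant transcript at 638 FPKM in castrated and 4639 FPKM in intact pigs. MRC2, an endocytic collagen receptor gene, stood at 16.5 FPKM in castrated and 63.6 FPKM in intact pigs, and the major listed CD44 transcript, of a hyaluronan receptor, at 19.8 FPKM in castrated and 47.8 FPKM in intact pigs. The integrin, DDR1, DDR2, CSPG4, ANTXR1 and ANTXR2 receptor genes on this list had no transcript listed by name.

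Over the 7 lists together, leaving out the 7 collagen genes under study, 31 of 36 listed transcripts were lower and 3 higher (median log2 -1.51). Over all listed transcripts 39.9% were lower and 42.6% higher (median 0.67). Some genes, such as DCN, had more than 1 transcript, and the lists were made with earlier results of these data known. Differences in both directions were present among other matrix genes as well. After centring PXDN alone passed upwards, but only 5.03% of all listed transcripts then did, against 42.6% before. The median used for centring comes from called transcripts only and is not an estimate of a difference in scale.

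**Figure D5:**
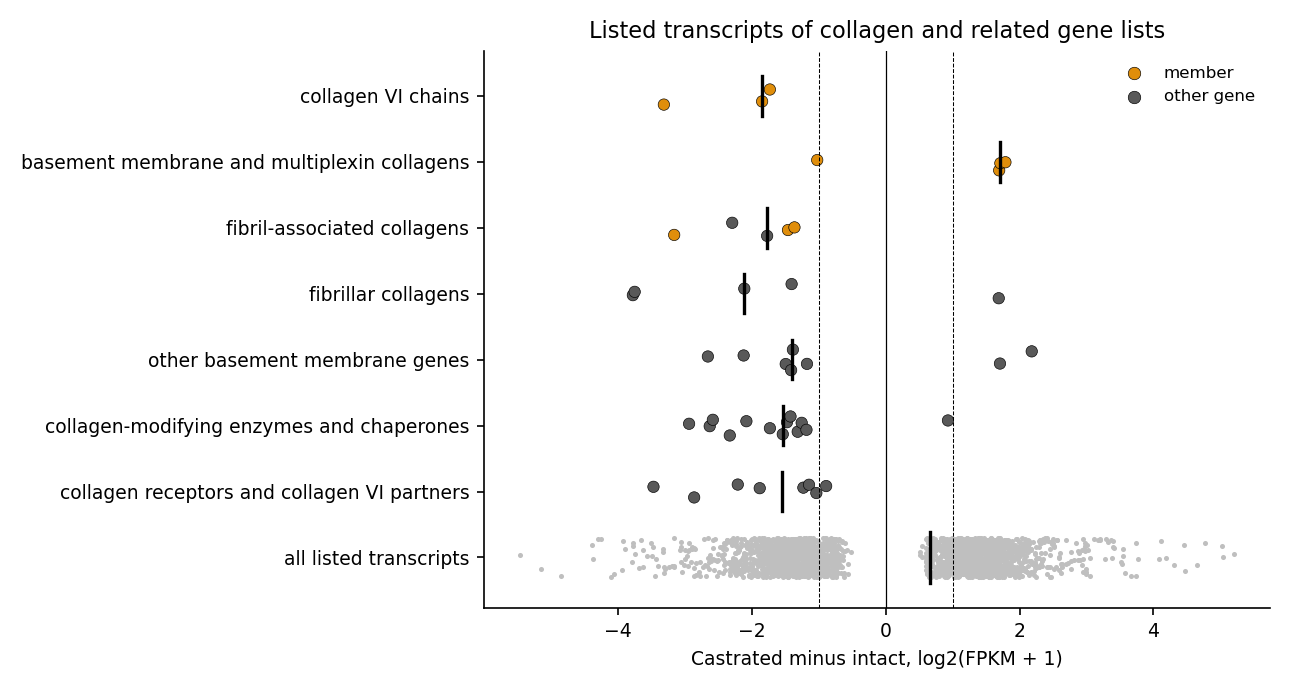
Castrated minus intact difference in log2(FPKM + 1) (x axis) of listed transcripts in 7 lists of collagen and related genes and of all 2645 listed transcripts (bottom row); orange points are the 7 collagen genes under study, black bars are medians, and dashed lines mark the 2-fold rule. In the 7 lists most points lie left of 0, and their points right of the rule are COL15A1, COL5A3, NID2 and PXDN, of which PXDN alone still passes after centring on the median.

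Cell type markers also differed between the groups. Fibroblasts and adipocyte progenitors are a main source of these collagens in fat. Their markers had 4 transcripts of 3 of 14 genes, all lower, with a summed level of 154 FPKM in castrated and 594 FPKM in intact pigs. MFAP5, a microfibril gene, stood at 81.1 FPKM in castrated and 365 FPKM in intact pigs, 4.50-fold lower. The 2 transcripts of PDGFRA, the receptor that defines adipose progenitors, were 3.32-fold and 3.05-fold lower, and ICAM1, listed as ICAM-1, 2.61-fold lower. The PDGFRA transcripts stood under separate gene IDs, 100627123 and 100524633, and both are in the summed level. Whether they are copies or pieces of 1 gene was not tested. COL6A2, COL6A6 and COL14A1 were lower by factors of the size of these marker ratios, and COL6A3 and COL12A1 by larger ones. The ratio of COL4A6, 4.80-fold lower, was also larger but came from low levels. On the log2(FPKM + 1) scale COL4A6 differed by -1.02, less than these markers did (-2.16 to -1.25). COL15A1 went the other way, with its 3 transcripts 3.29-fold to 3.50-fold higher. DPP4, PI16, CD34, THY1, PDGFRB and LUM were not listed. In bulk tissue, fewer cells of a type and less RNA per cell cannot be told apart, and the part of cell numbers in the collagen values was not tested.

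Adipocyte markers, looked up as a check of the tissue label, had 13 transcripts of 12 of 19 genes, with 12 higher, 1 lower and a summed level of 5999 FPKM in castrated and 1594 FPKM in intact pigs. After centring 4 of the 12 still passed upwards. The largest log2(FPKM + 1) differences upwards were those of LEP (25.7-fold higher), THRSP (11.5-fold higher) and PLIN4. PLIN4, a lipid droplet coat gene, stood at 360 FPKM in castrated and 75.2 FPKM in intact pigs. The 1 lower transcript was that of CFD, at 79.5 FPKM in castrated and 236 FPKM in intact pigs, and ADIPOQ was not listed. Macrophage markers had 7 transcripts of 3 of 15 genes, SPP1, MSR1 and LYZ, all higher, with a sum of 210 FPKM in castrated and 13.9 FPKM in intact pigs. The largest part was 1 SPP1 transcript, at 123 FPKM in castrated and 6.35 FPKM in intact pigs. CD14, CD68 and CD163 were not listed. Smooth muscle and pericyte markers had 5 transcripts lower and 2 higher with sums of 193 FPKM in castrated and 194 FPKM in intact pigs. These sums were close because RGS5, at 130 FPKM in castrated and 46.5 FPKM in intact pigs, offset the 5 lower transcripts. The endothelial list had a single listed gene, EGFL7, at 4.48 FPKM in castrated and 13.1 FPKM in intact pigs, while PECAM1, CDH5 and VWF were not listed. The 2 skeletal muscle markers listed, TCAP and DES, summed to 5.25 FPKM in castrated and 17.6 FPKM in intact pigs. DES is also among the smooth muscle and pericyte transcripts counted above. TCAP alone stood at 1.32 FPKM in castrated and 4.76 FPKM in intact pigs. The 2 erythroid markers summed to 1390 FPKM in castrated and 131 FPKM in intact pigs. The 2 skin markers listed went apart, PPL at 3.60 FPKM in castrated and 26.1 FPKM in intact pigs and EVPL at 1.47 FPKM in castrated and 0.171 FPKM in intact pigs. The part of these markers in the values of COL15A1 or the other collagens was not tested.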

How the data were processed

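Backfat RNA was depleted of ribosomal RNA and sequenced on an Illumina HiSeq instrument from a strand-specific library kit, per the labels' protocols, which also name a TruSeq kit. TopHat2, Cufflinks and the build Sscrofa10.2 appear, without role or version, in the submitters' processing notes. FPKM per transcript was deposited for each group, per the file headers. The log2 fold changes (castrated over intact), p-values and q-values are the authors', per the file headers. The sources used here do not say over how many transcripts the adjustment ran.

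FPKM ratios and differences of log2(FPKM + 1) were computed with Python 3.11.15, pandas 2.3.3 and numpy 2.4.6. With 1 value per group no test was made, and depth is unknown. The rule of size was tested on simulated data. Of the gene IDs, 85.9% matched the RefSeq table of Sscrofa11.1, used for names and gene order only, so no coordinates are given. The members and lists were chosen with earlier results of these data known. Named genes outside the members are up to 3 per list and direction with the largest change past the rule. The circRNA table (4 columns) pairs no circRNA with a gene and was not used. Alternatives were other pseudocounts, no minimum level, centring, and other ways of joining transcripts.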

Additional observations from a re-analysis of the deposited data

How the results depend on the processing

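Of 55 values of the collagen transcripts under other settings, 51 kept their direction and side of the rule, 4 no longer passed it and none turned its direction. Only other pseudocounts and centring change the value of a single transcript, so under the remaining settings its value was kept by construction. The 4 that no longer passed were COL4A6 with a pseudocount of 5 and the 3 COL15A1 transcripts after centring on the median, as the plot by scale shows. The count of transcripts higher in castrated pigs was therefore 0 after centring, and it was 1 with the highest transcript of each symbol, which by construction keeps 1 COL15A1 line. The count of lower ones was 6 or 7 under each setting. Over the 7 matrix lists 6 transcripts were higher, and 1 after centring, while 38 were lower, and 27 to 39 under the other settings. Of 210 counts of single lists 189 stayed within 1.5 times and 21 did not. The lncRNA beside COL6A6 had a log2 difference of -1.77, of -1.98 with a pseudocount of 0.1 and of -1.23 with a pseudocount of 5. Counting only lines named in the table, a setting added after the data were seen, gave 2 higher and 6 lower. No paired analysis was possible because each group had 1 value. The planned settings for circRNAs were not run, since the table names no host genes. With 1 value per group no error can be given, and unknown depth allows no interval.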

Other observations

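In the authors' annotation 6 of the 10 collagen transcripts carry a collagen triple helix repeat. Of the other 25 listed transcripts with that repeat, 20 were lower and 5 higher in castrated pigs (median log2(FPKM + 1) difference -1.79). Some of them share a gene, as the MSR1 transcripts among the higher ones do. The repeat is not limited to collagens, and SCARA5, for example, was among the lower ones. Of 17 further transcripts with a von Willebrand factor type A domain, present in COL6A3, COL12A1 and COL14A1, 11 were lower and 4 higher (median -1.18). In the KEGG pathway of ECM-receptor interaction, which holds COL6A2, COL6A3 and COL4A6, 17 of the 28 other transcripts were lower and 9 higher (median -1.26). Among the lower ones, chosen after their values were seen, were THBS1, a matricellular thrombospondin gene, at 57.4 FPKM in castrated and 331 FPKM in intact pigs, and TNC, which encodes tenascin-C, at 10.6 FPKM in castrated and 40.4 FPKM in intact pigs. Among the higher ones was the integrin gene ITGB8, at 8.54 FPKM in castrated and 2.30 FPKM in intact pigs. SPP1 and CD36 each had more than 1 transcript among these higher ones. In the KEGG pathway of protein digestion and absorption, which holds 8 of the 10 collagen transcripts, 6 of the 13 others were lower and 7 higher (median 1.05). These groups of the authors' annotation were looked at after the data were seen.

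Genes next to the collagen genes were looked up in the RefSeq gene order of Sscrofa11.1, with 3 protein-coding neighbours on each side of 6 placed genes. Of these 36 neighbours 4 had a line in the mRNA table. CD109, next to COL12A1, stood at 9.87 FPKM in castrated and 33.5 FPKM in intact pigs, and SLC17A5, the gene after it, at 2.15 FPKM in castrated pigs and was listed at 0 in intact pigs. ACKR3, near COL6A3, stood at 26.1 FPKM in castrated and 63.2 FPKM in intact pigs, and ASTE1, near COL6A6, was listed at 0 in castrated and stood at 1.19 FPKM in intact pigs. COL6A5 and COL4A5, neighbours of COL6A6 and COL4A6, had no listed transcript.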
